A study of Mus musculus with 4 samples.

Results

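The response of wild-type RAW 264.7 cells to lipopolysaccharide (LPS) is described here as the ratio of 1 library of LPS-treated cells to 1 library of untreated cells, gene by gene. The pair was chosen by its labels and makes up 2 of the 4 libraries of the study. The other 2 libraries, untreated and LPS-treated cells of the same line with the genotype Hnrnpul1-/-, served to set the filter and the scaling and, at the end, as a second pair. The treated cells had received LPS at 100 ng/ml for 10 h, and the untreated cells had received no LPS. Of 54532 genes in the deposited tables, 11640 had a mean of at least 1 CPM (read counts scaled to a common library size) over the 4 libraries and were compared. Levels are CPM after TMM scaling, a normalization that matches the bulk of genes between libraries, and differences are log2 ratios of LPS-treated to untreated cells with a 95% counting interval in square brackets; a lone number in parentheses after the levels of a gene is this log2 ratio. Genes are called higher or lower where this ratio is 2-fold or more and its interval lies wholly on one side of 0. No ratio has a replicate check, since each group is 1 library. The intervals cover counting error alone, treat PCR copies as independent although no molecular identifiers were used, and do not hold the spread between cultures, which is unknown.

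LPS is a component of the outer membrane of Gram-negative bacteria and is sensed on macrophages by TLR4 with its partner MD-2 (Ly96) and the co-receptor CD14. TLR4 signals through MyD88, which leads to NF-kB and AP-1 and to the transcription of inflammatory cytokines, and through TRIF, which leads to IRF3 and to interferon beta. Interferon beta acts back on the cells through its receptor and a complex of STAT and IRF factors that binds the interferon-stimulated response element (ISRE) in promoters of antiviral genes. RAW 264.7 is a mouse macrophage-like line that divides continuously in culture and is widely used to study these steps.

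The cell identity was checked against marker genes. Of 15 macrophage markers, 14 had more than 3 reads in both libraries, and Mertk had 0 in both. Summed macrophage marker levels were 5407 CPM untreated and 10816 CPM with LPS, but the markers did not all move one way. Lyz2, the macrophage lysozyme, was at 1587 CPM untreated and 3334 CPM with LPS (1.07) and Laptm5, a lysosomal membrane protein, at 677 CPM untreated and 342 CPM with LPS (-0.99, not called), and Tyrobp, an adaptor of activating receptors, had -0.42. Csf1r, the receptor for the macrophage growth factor, was at 787 and 803 CPM (0.03 [-0.01 to 0.06]). Fibroblast and epithelial markers had 0 reads in both libraries. The B-cell list summed to 140 CPM untreated and 232 CPM with LPS, nearly all of it Ighm. The T-cell list summed to 3.69 and 14.7 CPM, almost wholly Lck, and the dendritic cell list to 3.16 and 9.31 CPM; the part of these transcripts in the results was not tested. In bulk RNA, a change in the number of cells of a type and a change in RNA per cell cannot be told apart. Total counts were 17162124 untreated and 17045432 with LPS, and Hnrnpul1, the gene deleted in the other genotype, stood at 268 and 203 CPM (-0.4).

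The promoters below carry the motifs to which the response is later compared. Each line gives the 150 bases before a RefSeq gene start (GRCm38.p6), 5′ to 3′ on the gene's strand, with every match in capitals. The first 4 genes are interferon-inducible genes with the largest gain in CPM whose sequence holds the ISRE letters (GAAA, any 2 bases, GAAA) on either strand.
Bst2: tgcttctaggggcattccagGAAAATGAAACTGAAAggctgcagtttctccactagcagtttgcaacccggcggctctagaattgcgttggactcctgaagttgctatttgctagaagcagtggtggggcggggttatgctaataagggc
Isg15: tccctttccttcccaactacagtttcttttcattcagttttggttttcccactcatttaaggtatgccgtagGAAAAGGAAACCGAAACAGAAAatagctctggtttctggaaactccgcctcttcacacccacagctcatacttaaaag
B2m: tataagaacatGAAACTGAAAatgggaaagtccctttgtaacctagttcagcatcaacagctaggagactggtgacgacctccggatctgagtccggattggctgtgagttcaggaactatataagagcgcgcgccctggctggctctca
Oas3: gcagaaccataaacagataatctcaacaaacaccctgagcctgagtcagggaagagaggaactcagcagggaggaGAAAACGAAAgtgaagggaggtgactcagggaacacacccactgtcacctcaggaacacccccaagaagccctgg
The next 3 had the largest gain in CPM among called genes with the NF-kB letters (GGG, any 3 bases, TTCC) on either strand.
Ccl9: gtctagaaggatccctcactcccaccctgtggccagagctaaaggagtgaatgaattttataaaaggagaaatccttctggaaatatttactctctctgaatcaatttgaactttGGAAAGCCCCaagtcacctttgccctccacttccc
Cpd: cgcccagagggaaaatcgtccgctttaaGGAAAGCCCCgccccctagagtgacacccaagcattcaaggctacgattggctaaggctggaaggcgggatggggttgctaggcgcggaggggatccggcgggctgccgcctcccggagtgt
Mcl1: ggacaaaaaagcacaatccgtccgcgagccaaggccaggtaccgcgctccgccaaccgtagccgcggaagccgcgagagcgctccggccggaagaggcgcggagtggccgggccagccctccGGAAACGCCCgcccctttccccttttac
The last 3 are mitotic genes with the largest loss in CPM whose sequence holds the cell cycle homology region (CHR) letters TTTGAA on either strand.
Mki67: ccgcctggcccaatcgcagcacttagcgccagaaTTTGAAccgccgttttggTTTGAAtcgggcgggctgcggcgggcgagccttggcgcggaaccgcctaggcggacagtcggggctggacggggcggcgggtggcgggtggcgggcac
Top2a: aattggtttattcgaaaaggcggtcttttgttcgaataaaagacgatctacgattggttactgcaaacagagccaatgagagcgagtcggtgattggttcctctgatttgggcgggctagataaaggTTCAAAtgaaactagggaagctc
Ncapd2: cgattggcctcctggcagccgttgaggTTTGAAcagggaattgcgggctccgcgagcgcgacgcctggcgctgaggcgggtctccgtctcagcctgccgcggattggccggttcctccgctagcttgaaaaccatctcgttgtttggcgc
The Bst2 window is chr8:71537473-71537622 on the minus strand, Isg15 chr4:156200819-156200968 on the minus strand, B2m chr2:122147537-122147686 on the plus strand and Oas3 chr5:120777660-120777809 on the minus strand. Ccl9 is chr11:83578637-83578786 on the minus strand, Cpd chr11:76847009-76847158 on the minus strand and Mcl1 chr3:95658571-95658720 on the plus strand. Mki67 is chr7:135716380-135716529 on the minus strand, Top2a chr11:99024190-99024339 on the minus strand and Ncapd2 chr6:125191587-125191736 on the minus strand. The 2 matches of Bst2 share bases with each other, as do the 3 matches of Isg15. A match is a description of letters and not a binding site.

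LPS-treated cells had more of 1309 transcripts and less of 1180, or 11.2% and 10.1% of the genes compared, and the increases were the larger changes. Among genes called higher the median log2 ratio was 1.79, with quartiles of 1.29 and 2.99, and the median level was 10.2 CPM untreated and 55.0 CPM with LPS. Among genes called lower the median was -1.54, with quartiles of -2.01 and -1.23, and the median level was 20.2 CPM untreated and 6.51 CPM with LPS. Changes of at least 16-fold were found for 217 genes called higher and for 19 called lower, and changes of at least 64-fold for 90 and 3. The median log2 ratio of all genes was -0.00388, and 65.1% of the 8799 genes at a mean of 10 CPM or more lay within 1.5-fold of no change. The balance of the calls depends on the scaling. With libraries scaled to total counts, which moved the median of all genes to -0.30, 975 genes were called higher and 1904 lower, so that 33.9% of calls were higher against 52.6% with TMM. Of these genes, none that an alternative scaling, filter or rule tested was called in the opposite direction there. Deposited FPKM, for example, tested 1132 of the 1309 and 916 of the 1180. Other scalings shift all count ratios by the same small amount, other filters and rules keep the ratio, and FPKM derive from the same counts. A reversal was thus not possible, and its absence is no check. In an additive edgeR quasi-likelihood model of genotype and LPS over all 4 libraries, 1182 of the 1309 and 1066 of the 1180 also passed a Benjamini-Hochberg adjusted p of 0.05 and 2-fold. That model tests an LPS effect shared by both genotypes, and its error term comes from the difference between the genotypes, not from replicates. It includes the 2 wild-type libraries that gave the calls, so the overlap is in part built in and is not an independent check. With the stricter rule that the whole interval lies beyond 2-fold, 8.70% of genes were called higher and 6.25% lower, and in the knockout pair 9.08% and 7.41%.

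**Figure D1:**
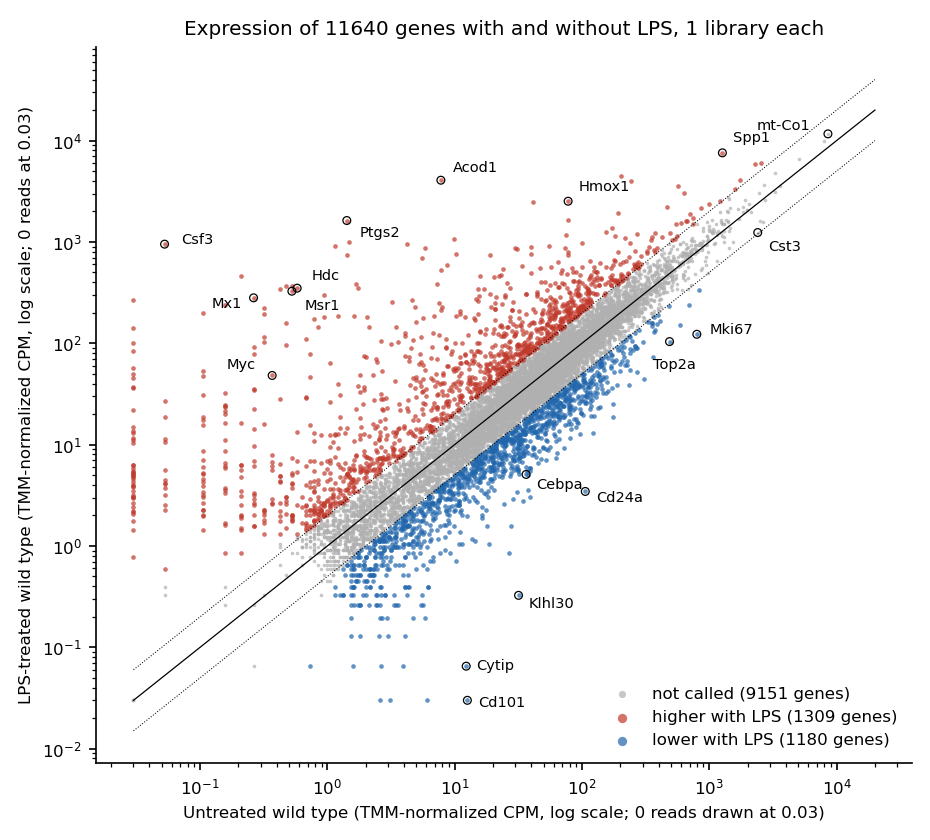
Level of each of 11640 genes in untreated (x axis) and LPS-treated (y axis) wild-type cells, in TMM-normalized CPM on log axes, with 1 point per gene and genes with 0 reads drawn at 0.03. The solid line marks equal levels and the dotted lines 2-fold; red genes (1309) were called higher and blue genes (1180) lower, and Hmox1 went from 77.8 to 2522 CPM while Mki67 went from 798 to 123 CPM.

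Part of the response consisted of transcripts absent or nearly absent before LPS. Of the genes called higher, 101 had 3 or fewer untreated reads and 44 had 0. Among genes with 3 or fewer untreated reads, 37 reached 10 CPM with LPS and 6 reached 100 CPM: Csf3, Il1a and Il1b, which encode cytokines, and the interferon-inducible Ifit3, Ifi209 and Ifi211. The reverse was rare, since 20 genes called lower had 3 or fewer reads with LPS and 4 had 0. A gene this low in one library passed the filter through the libraries where it is high, so it had to differ. The 2 genes with 10 CPM or more untreated and at most 3 reads with LPS were Cd101 and Cytip. Cd101 (chr3:100993529-101029556, minus strand) encodes a surface glycoprotein and went from 239 reads to 0. With 3 reads put in for 0 it was 64.4-fold lower, and the interval of its log2 ratio ended at -5.70. Cytip, which encodes a cytohesin-interacting protein, went from 234 reads to 1 (log2 ratio -7.56 [-12.87 to -5.07]).

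The genes called higher came to hold a much larger part of the messenger RNA pool. That their share rose, and that of genes called lower fell, follows from the calls, so only the sizes are described. The genes called higher held 7.26% of all counts untreated and 22.9% with LPS, while the genes called lower went from 5.95% to 1.65%. By deposited FPKM, which divides by gene length, the called-higher genes held 7.65% and 25.4%. Over all genes compared, called or not, the 10 with the largest gains in CPM together went from 1.75% to 4.70% of counts. The 100 with the largest gains went from 8.06% to 16.9%, so this set is not a part of the called-higher genes alone. The number of genes that make up 50% of the counts was 996 untreated and 768 with LPS. Among groups, antiviral effectors went from 0.237% to 1.95% of counts, whereas mitotic genes went from 0.951% to 0.204%. The CC chemokine list, which also holds the receptor gene Ccrl2, went from 0.0541% to 0.901%.

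The most abundant transcripts were partly replaced. By FPKM, the unit in which levels of different genes can be compared, mitochondrial mt-Co1 was first in both libraries. Fth1, the heavy chain of the iron store ferritin, went from rank 6 to 2 (2563 and 6563 FPKM). Ccl3, a chemokine for monocytes, went from rank 147 to 3 (254 and 5580 FPKM), and Spp1, the secreted matrix protein osteopontin, from rank 31 to 4 (742 and 4437 FPKM). Ccl4 went from rank 368 to 11 and Acod1, the itaconate-forming enzyme, from rank 8659 to 16. Hmox1, the haem-degrading oxygenase, went from rank 1186 to 17 (42.8 and 1392 FPKM). Cst3, the protease inhibitor cystatin C, moved down from rank 8 to 39 (1829 and 944 FPKM).

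In CPM, where gains within a gene can be read, Spp1 (chr5:104435118-104441050, plus strand) went from 1268 to 7569 CPM (2.58 [2.56 to 2.6]) and Ccl3 (chr11:83647844-83649355, minus strand) from 202 to 4424 CPM (4.45 [4.41 to 4.5]). Rnf213, a large interferon-inducible ubiquitin ligase, went from 243 to 4019 CPM (4.05). Odc1, the first enzyme of polyamine synthesis, went from 572 to 3535 CPM (2.63). Transcripts that were already abundant could thus gain much in CPM at modest ratios: Hspa5, the main chaperone of the endoplasmic reticulum, went from 1728 to 4078 CPM (1.24) and Actb, beta-actin, from 2557 to 6037 CPM (1.24). The largest losses in CPM included Mki67, the proliferation marker on chr7:135689784-135716361, minus strand (798 to 123 CPM, log2 ratio -2.7 [-2.77 to -2.63]), and Top2a, the topoisomerase that untangles chromosomes (487 to 104 CPM, -2.23). Gpnmb, a transmembrane glycoprotein of macrophages, went from 829.9 to 334 CPM (-1.31). Several of the largest losses were below 2-fold and were not called, among them Cst3 (2401 to 1237 CPM, -0.96), Ptma (2635 to 1584 CPM, -0.73) and the integrin gene Itga4 (2513 to 1609 CPM, -0.64).

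The counts of this and all later lists stand beside the 11.2% called higher and 10.1% called lower among all genes compared. Secreted signals were called higher far more often than lower. Of 38 listed cytokines 19 were measured, and 16 of these were called higher and 0 lower, with a median log2 ratio of 3.99. Of 19 genes in the CC chemokine list 12 were measured and 10 called higher (median 5.68). Among those 10, Ccrl2 (7.04) encodes a chemokine-like receptor and not a chemokine. All 4 measured of 15 CXC chemokines were called higher (median 8.60). In this and all later lists, members silent in untreated cells were measured only through libraries where they are high. The filter thus sets part of these counts, which are not counts over whole families.

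Lif, a cytokine of the interleukin-6 family, went from 1 read to 18.9 CPM (8.49 [6.0 to 13.8]). Il27, which restrains T-cell inflammation, went from 0.684 to 109.9 CPM (7.33 [6.55 to 8.24]). Csf1, the growth factor for macrophages themselves, went from 1.05 to 26.2 CPM (4.64 [3.99 to 5.36]). Antagonists were part of the same group, since Il1rn, the decoy ligand of the interleukin-1 receptor, went from 1.95 to 74.6 CPM (5.26). Osm, oncostatin M, went from 5.90 to 54.8 CPM (3.22), and Tgfb1, a suppressive cytokine, from 168 to 376 CPM (1.16). Mif, which macrophages store and secrete without stimulation, was at 0.22 (728 to 847 CPM) and was not called. Other cytokines known from primary macrophages were near or at 0: Il10 and Il12a had 0 reads in both libraries, and Il12b 0 and 11 reads.

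Among chemokines, Cxcl2, which attracts neutrophils, went from 1.16 to 915 CPM (9.63 [9.03 to 10.3]). Ccl2, the main attractant of monocytes, went from 5.53 to 694 CPM (6.97 [6.7 to 7.26]), and Ccl22, an attractant of regulatory T cells, from 0.316 to 195 CPM (9.27 [8.14 to 10.71]). The monocyte attractant Ccl12 and the T-cell attractant Ccl17 had 0 untreated reads, and 200 and 77 reads with LPS. With 3 reads put in for 0, Ccl12 was 82.5-fold and Ccl17 31.8-fold higher. Ccl9, whose promoter match is printed above, was already present and went from 194 to 1949 CPM (3.33). The smallest called ratio of a CXC chemokine was that of the membrane-bound Cxcl16 (5.95 to 30.1 CPM, 2.34). Cxcl1 and Cxcl9 had 0 reads in both libraries.

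Growth factors moved in both directions. Of 15 measured among 29 listed, 7 were called higher and 5 lower. Pdgfb, a platelet-derived growth factor chain, went from 44.3 to 289 CPM (2.71), and Vegfa, the main angiogenic factor, from 33 to 80.4 CPM (1.29). Igf1, insulin-like growth factor, fell from 56.4 to 9.57 CPM (-2.56 [-2.82 to -2.31]), and Gas6, a ligand of the receptor AXL, from 2.84 to 0.326 CPM (-3.13 [-4.81 to -1.82]). Vegfb and Angptl4 had log2 ratios of -1.72 and -2.14. Of 22 measured secreted proteases, inhibitors and matrix proteins (38 listed), 15 were called higher and 1 lower, with a median of 2.58. Some members, such as Mmp13 with 0 and Timp1 with 2 untreated reads, passed the filter only through other libraries. At a mean of 10 CPM or more, 10 of 15 were called higher and 0 lower (median 1.975). Mmp9, a gelatinase, went from 3 reads to 24 CPM (7.25 [5.69 to 9.53]). Plaur, the receptor that holds urokinase at the surface, went from 27.4 to 352 CPM (3.68), while urokinase itself, Plau, was at 207 CPM untreated and 146 CPM with LPS (-0.5) and was not called. The 1 member called lower was the proteoglycan syndecan-1, Sdc1 (10.7 to 1.04 CPM, -3.37 [-4.2 to -2.63]).

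Receptors for microbial molecules were called higher in 18 of 28 measured cases (34 listed), with 0 lower and a median of 1.82. The receptor of LPS itself was not among them: Tlr4 was at 52.3 CPM untreated and 60.8 CPM with LPS (0.22 [0.09 to 0.35]). Of its partners, Cd14 went from 635 to 3011 CPM (2.25) and Ly96 had a log2 ratio of 1.02, both called higher. Sensors of nucleic acids were among the members with large ratios. Zbp1, a sensor of Z-form nucleic acids, went from 0.421 to 339 CPM (9.65 [8.67 to 10.87]), Ifih1, the RNA sensor MDA5, from 4.63 to 268 CPM (5.86), and Tlr3, the receptor for double-stranded RNA, from 1.79 to 33 CPM (4.2). Clec4e, the mycobacterial glycolipid receptor Mincle, went from 47.2 to 548 CPM (3.54).

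Downstream of the receptor most components were not called. Of 39 measured TLR4 adaptors and kinases (40 listed), 11 were called higher, 0 lower and 28 neither, and the median was 0.20. The adaptors Myd88 and Tirap had log2 ratios of 0.99 and 0.48, neither called. The called members included kinases that act as brakes or at the interferon branch: Irak3, which lacks kinase activity and dampens the pathway, went from 7.21 to 69.6 CPM (3.27), and Ikbke, a kinase of IRF3, from 36.4 to 303 CPM (3.06). Irak2 had a log2 ratio of 2.31.

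Transcription factors of the inflammatory program were split between called and uncalled members. All 11 listed NF-kB and IkB genes were measured and 7 were called higher (median 1.75). The largest were Nfkbiz, an inducible nuclear cofactor of NF-kB (7.53 to 249.97 CPM, 5.05), and Bcl3, another nuclear IkB protein (3.58). Rela, the transactivating subunit that is activated by release from its inhibitor, was at 57.5 CPM untreated and 70 CPM with LPS (0.28) and was not called. A like split was seen among interferon factors, with 8 of 18 measured members called higher and 1 lower. Irf7, the amplifier of interferon production, went from 4.21 to 963 CPM (7.84) and Stat2, a transducer of the interferon receptor, from 19 to 309 CPM (4.03). Irf3, activated by phosphorylation, had a log2 ratio of 0.19, and Irf4 was the member called lower (-1.22).

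Among 35 measured AP-1 and related bZIP factors, 16 were called higher and 2 lower (median 0.80). Batf2 went from 3 reads to 19.9 CPM (6.98 [5.42 to 9.27]), Cebpd from 20.6 to 250.3 CPM (3.6), Atf3 from 20.7 to 217 CPM (3.39) and Fosl1 from 8.48 to 88.9 CPM (3.39). Fos, an immediate early gene, was at 0.67 and was not called at 10 h. Among those called lower, the myeloid differentiation factor Cebpa went from 36.4 to 5.08 CPM (-2.84 [-3.2 to -2.5]). The list of myeloid lineage factors, which also holds Cebpa, had 3 of 27 measured members called higher and 6 lower, and Spi1, the PU.1 factor that defines the lineage, was at 330.0 CPM untreated and 435 CPM with LPS (0.4), not called. Myc, a driver of growth, went from 7 reads to 48.1 CPM (7.03 [5.98 to 8.35]), while its paralogue Mycn was not called (859 to 534 CPM, -0.68). Klf4 and Egr3 were called lower (-2.75 [-4.26 to -1.53] and -2.09 [-2.63 to -1.59]). The list named for EGR, NR4A and KLF factors had 26 measured genes, with 5 called higher and 6 lower. It also holds genes outside these families, and those called higher included Myc, Ier3 (3.59) and Mxd1 (1.88).

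**Figure D2:**
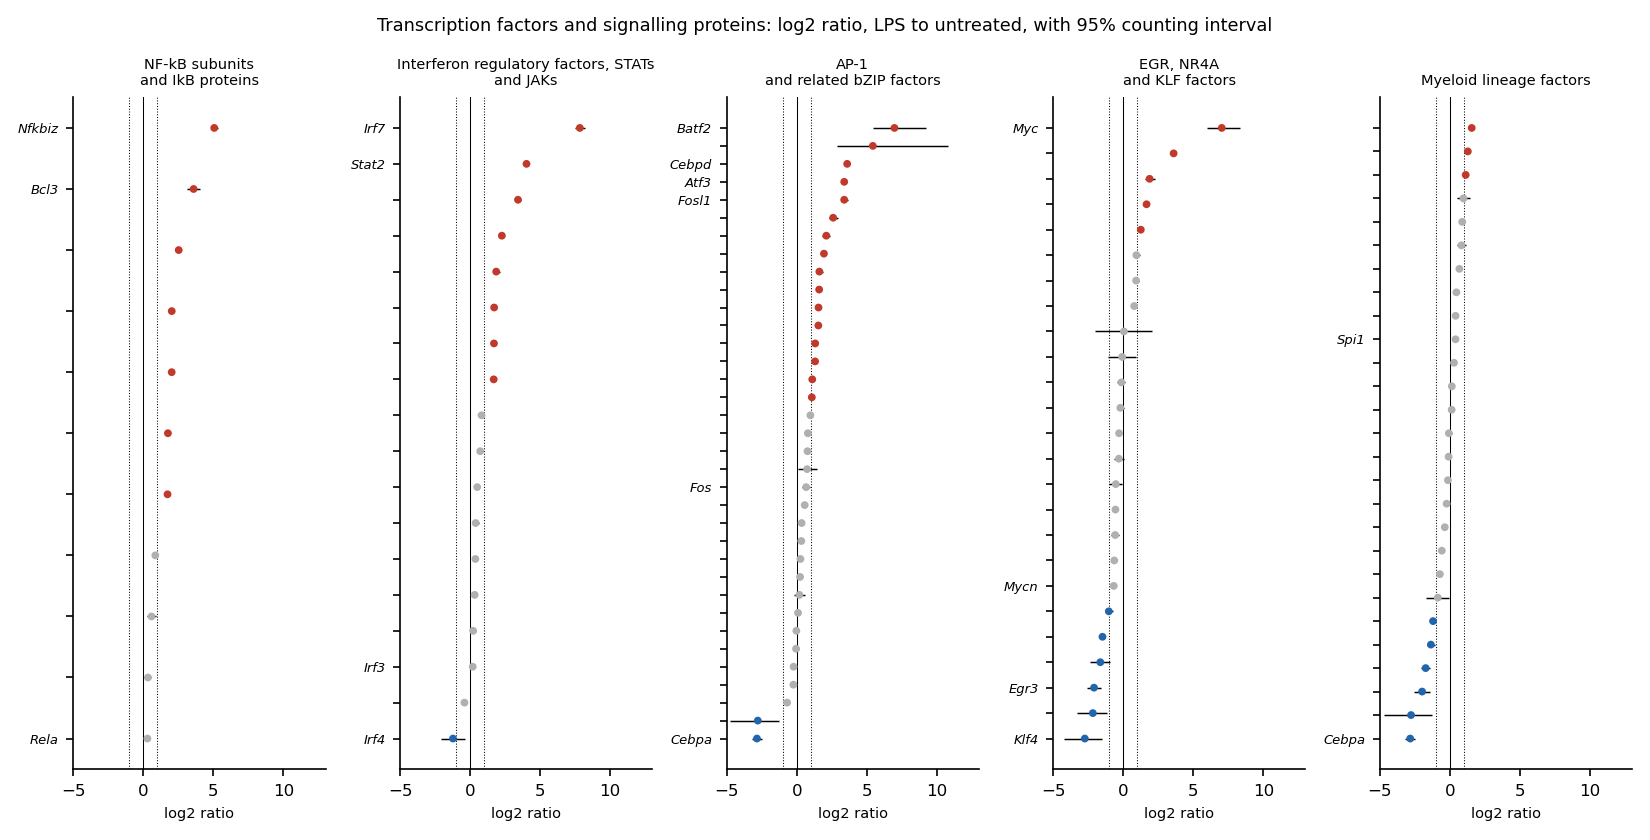
Log2 ratio of LPS-treated to untreated wild-type cells (x axis) for measured members of 5 transcription factor and signalling lists, with 1 gene per line, 95% counting intervals as bars and names for the genes given in the text; red, called higher; blue, called lower; grey, neither; dotted lines, 2-fold. Inducible members such as Irf7 and Nfkbiz stand at 7.84 and 5.05, while Rela, Irf3 and Spi1 stand at 0.28, 0.19 and 0.40.

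Feedback inhibitors of signalling were called higher in 19 of 35 measured cases (41 listed) and lower in 0, with a median of 1.32. Usp18, which removes ISG15 and shuts off the interferon receptor, went from 8.69 to 588 CPM (6.08). Socs3, an inhibitor of STAT3 signalling, went from 16.8 to 342 CPM (4.34). Rgs16, which turns off G proteins, and Dusp5, a phosphatase of ERK, had log2 ratios of 4.97 and 4.86. Regulators of cytokine mRNA stability differed within a family: Zfp36 (tristetraprolin), which destabilises AU-rich mRNAs, went from 28.9 to 257 CPM (3.15), whereas its relatives Zfp36l1 (62 to 27.9 CPM, -1.15) and Zfp36l2 (148 to 44.8 CPM, -1.72) were called lower. Zc3h12a, the RNase regnase-1, went from 10.1 to 100.2 CPM (3.31).

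Antiviral effectors were the largest group in which nearly every measured member was called. Of 71 listed, 68 were measured, and 63 were called higher and 0 lower, with a median log2 ratio of 4.23. Mx1, a GTPase that blocks influenza virus, went from 5 reads to 281 CPM (10.06 [8.84 to 11.68]). Rsad2, viperin, went from 0.526 to 366 CPM (9.44 [8.56 to 10.5]), and Isg15, the ubiquitin-like modifier whose promoter holds 3 ISRE matches, from 5.84 to 871 CPM (7.22 [6.95 to 7.5]). Other members started from higher untreated levels: Oasl1 went from 9.84 to 1076 CPM (6.77), Oas3, an oligoadenylate synthase, from 39.9 to 499 CPM (3.64) and Bst2, tetherin, from 99.7 to 973 CPM (3.29). Ifi27 was at 112 CPM untreated and 87.4 CPM with LPS (-0.35) and was not called. All 15 measured interferon-inducible GTPases (19 listed) were called higher, with a median of 6.74. Here and among the antiviral effectors, members silent in untreated cells passed the filter only through libraries where they are high. Such members had to differ, so these counts are set in part by the filter. Gbp2, a guanylate-binding protein that attacks pathogen vacuoles, went from 1 read to 27.1 CPM (9.01 [6.52 to 14.31]) and Irgm1 from 22.1 to 461 CPM (4.38). Ifnb1, the interferon that induces these genes, had 0 reads untreated and 12 with LPS and was under the filter. Genes of the Gbp, Ifi200, Slfn, Ifit and Oas families are near copies of each other, and no source used here says how reads shared between copies were counted, so the values of single members are uncertain.

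Antigen presentation differed by class. Of 20 measured MHC class I and peptide loading genes (24 listed), 13 were called higher and 0 lower (median 1.37). Tap1, which carries peptides into the endoplasmic reticulum, went from 23.6 to 243 CPM (3.37), and B2m, the shared light chain, from 346 to 1046 CPM (1.6). H2-K1 and H2-D1, classical heavy chains, had log2 ratios of 1.36 and 1.25. The inducible proteasome subunits Psmb8, Psmb9 and Psmb10, which shape peptides for class I, had log2 ratios of 1.54, 1.67 and 1.85, and their activator subunit Psme2 2.05. Of 40 measured proteasome genes in all, 8 were called higher and 0 lower. Of 9 measured class II pathway genes (16 listed), 1 was called higher and 3 lower. The 1 higher was Cd74, the invariant chain (199 to 605 CPM, 1.6). Ifi30, a lysosomal thiol reductase, went from 64.5 to 19.2 CPM (-1.75) and H2-DMa, a peptide exchange factor, had -1.81. The class II chains H2-Aa and H2-Ab1 had 0 reads in both libraries and their master regulator Ciita had 3 and 0. The MHC genes are highly variable between mouse strains, and reads were aligned to the reference strain, so their levels are uncertain.

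Ligands that act on T cells were mostly called higher. Of 17 measured costimulatory and checkpoint genes (27 listed), 12 were called higher and 2 lower (median 1.39). Cd40 went from 6 reads to 115 CPM (8.51 [7.38 to 9.95]), Cd274, the inhibitory ligand PD-L1, from 2.26 to 48.5 CPM (4.42) and Lgals9, the lectin galectin-9, from 7.26 to 381 CPM (5.71). Cd276, also called B7-H3, and Havcr2, the TIM-3 receptor, were the 2 called lower, with log2 ratios of -2.24 and -1.81.

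Surface receptors of the phagocyte changed in both directions. Of 26 measured Fc, scavenger and phagocytic receptors (39 listed), 15 were called higher and 4 lower (median 1.77). Msr1, the class A scavenger receptor, went from 0.526 to 326 CPM (9.28 [8.4 to 10.34]). Siglec1, a sialic acid receptor of macrophages, went from 0 reads to 766 reads (316-fold higher with 3 reads put in for 0). Axl, a receptor for dying cells, went from 3.16 to 98.5 CPM (4.96), whereas Trem2, a lipid receptor that dampens inflammation, went from 224 to 60.8 CPM (-1.88). The activating receptors for IgG differed as well, with log2 ratios of 2.0 for Fcgr1, 4.19 for Fcgr4 and -1.03 for Fcgr3. Of 31 measured chemoattractant receptors and adhesion molecules, 19 were called higher and 2 lower. C5ar1, the receptor for complement fragment C5a, went from 10.2 to 186 CPM (4.2), and Itgal, the LFA-1 integrin chain, from 12.8 to 121 CPM (3.24). S1pr1, the receptor that guides cells out of tissues, fell from 7.69 to 1.56 CPM (-2.3). Of 10 measured complement genes, 6 were called higher, among them C3 (3.13) and properdin, Cfp (1.71), and 1, C2, was called lower (-2.74 [-4.7 to -1.25]). Of 41 measured cytokine receptors, 11 were called higher and 1 lower; Tnfrsf1b, the TNF receptor of immune cells, went from 23 to 476 CPM (4.37), and Ifngr1 was at -0.97, not called.

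**Figure D3:**
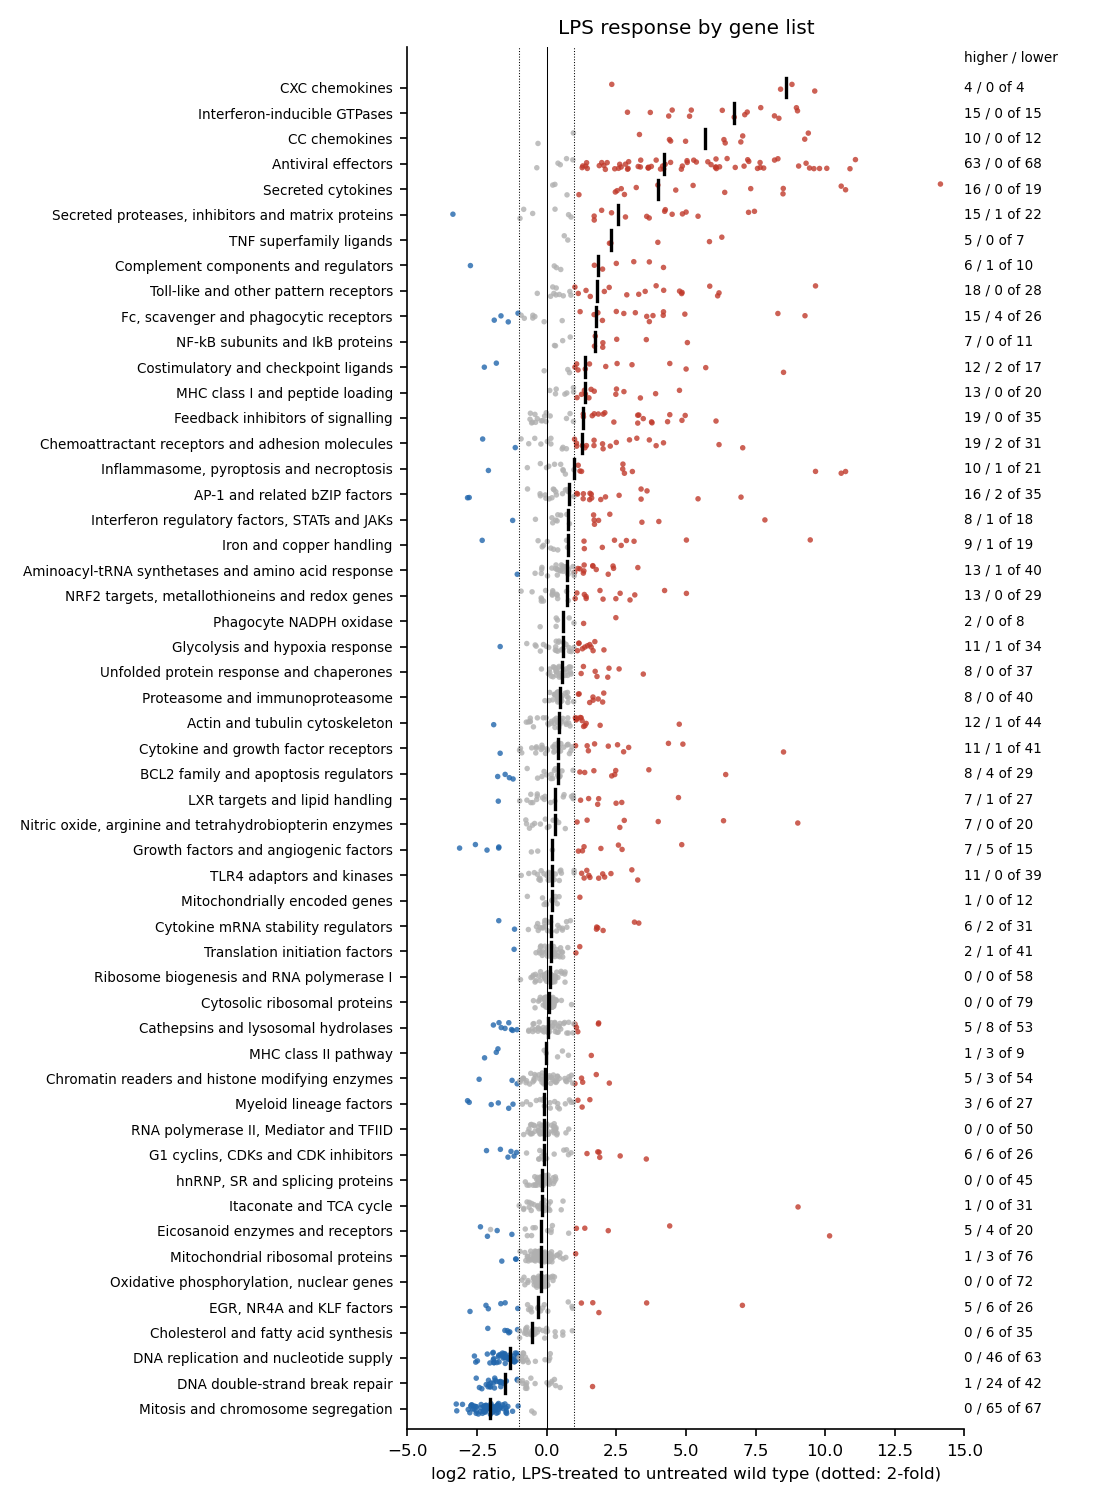
Log2 ratio of LPS-treated to untreated wild-type cells (x axis) for measured genes of 53 lists (rows), with 1 point per gene, a black bar at each list's median and the number called higher and lower at the right; red, called higher; blue, called lower; grey, neither; dotted lines, 2-fold. Medians run from 8.60 for CXC chemokines to -2.02 for mitosis, and 18 of 53 lists have a median beyond 2-fold.

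Enzymes that make small effector molecules had called members beside uncalled ones in each list. Of 20 measured nitric oxide, arginine and tetrahydrobiopterin genes, 7 were called higher and 0 lower. Beside the synthase itself, Ass1, which regenerates arginine from citrulline, had a log2 ratio of 6.35 [4.47 to 9.41], and Gch1, the first enzyme of the cofactor tetrahydrobiopterin, went from 7.58 to 122 CPM (4.01). Arg1, which competes for arginine, had 4 and 3 reads. In the eicosanoid list 5 of 20 measured were called higher and 4 lower. Ptges, the inducible prostaglandin E synthase, had a log2 ratio of 4.42, whereas the constitutive cyclooxygenase Ptgs1 went from 116 to 26.5 CPM (-2.13), the leukotriene-forming Alox5 from 82.5 to 15.9 CPM (-2.38) and Hpgds, the prostaglandin D synthase, from 202 to 85.2 CPM (-1.25). Hdc, the enzyme that makes histamine, went from 11 reads to 350 CPM (9.24 [8.4 to 10.24]) and was the unlisted protein-coding gene with the largest ratio at a mean of 5 CPM or more.

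Metabolic lists differed in how many members were called. Of 34 measured glycolysis and hypoxia genes, 11 were called higher and 1 lower (median 0.60). The glucose transporter Slc2a1 went from 237 to 986 CPM (2.06), hexokinase 2, Hk2, from 168 to 559 CPM (1.73), and Pfkfb3, the enzyme that speeds phosphofructokinase, had 1.6. The muscle-type phosphofructokinase Pfkm was the 1 called lower (31.3 to 9.83 CPM, -1.67). In 31 measured itaconate and TCA cycle genes only Acod1 was called (7.79 to 4064 CPM, 9.03), and Sdha, the succinate dehydrogenase subunit that itaconate inhibits, was at 406 CPM untreated and 298 CPM with LPS (-0.45). Of 72 nuclear genes of oxidative phosphorylation, all measured, 0 were called in either direction (median -0.21). Of 12 measured mitochondrially encoded genes 1 was called higher, mt-Atp6 (16 to 36.6 CPM, 1.19), a gene that overlaps its neighbour on the mitochondrial genome and had a log2 ratio of 0.23 in the knockout pair. Cholesterol and fatty acid synthesis had 0 called higher and 6 lower of 35 measured. Of 27 measured LXR targets and lipid handling genes, 7 were called higher and 1 lower. Abca1, which exports cholesterol, and Plin2, which coats lipid droplets, were called higher (2.49 and 1.51), and Cpt1a, which brings fatty acids into mitochondria, lower (-1.74).

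Redox and iron genes were mostly called higher where called. Of 29 measured NRF2 targets, metallothioneins and redox genes, 13 were called higher and 0 lower. Hmox1 (chr8:75093621-75100589, plus strand) went from 77.8 to 2522 CPM (5.02 [4.94 to 5.09]), Slc7a11, the cystine importer, from 40.1 to 754 CPM (4.24) and Sqstm1, the autophagy receptor p62, from 171 to 1359 CPM (2.99). Of 19 measured iron and copper genes 9 were called higher and 1 lower: the iron exporter Slc40a1 had a log2 ratio of 2.68, and the endosomal iron reductase Steap3 fell from 33.7 to 6.77 CPM (-2.31). Cybb, the catalytic subunit of the phagocyte oxidase, went from 863 to 2167 CPM (1.33), and Sod2, the mitochondrial superoxide dismutase, from 116 to 650.0 CPM (2.49). Among 53 measured cathepsins and lysosomal hydrolases 5 were called higher and 8 lower, where 11.2% and 10.1% of all genes were. These counts are near those shares and are not read as a response of the group. Cathepsin L, Ctsl, was at 1.12 and cathepsin H, Ctsh, at -1.63.

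Genes of cell division formed the opposite end of the response. All 67 listed mitosis and chromosome segregation genes were measured, and 65 were called lower and 0 higher, with a median log2 ratio of -2.02. Aspm, a spindle pole protein, fell from 122 to 12.9 CPM (-3.25), Foxm1, the transcription factor of mitotic genes, from 124 to 19.3 CPM (-2.68) and Ccna2, cyclin A, from 272 to 52.6 CPM (-2.37). Plk1, the polo-like kinase, went from 131 to 32.6 CPM (-2.01) and Ccnb1, cyclin B, from 226 to 67.1 CPM (-1.75). The 2 members not called were the checkpoint protein Bub3 (-0.45) and securin, Pttg1 (-0.53). Of 63 measured DNA replication and nucleotide supply genes 46 were called lower and 0 higher (median -1.32), and of 42 double-strand break repair genes 24 were called lower and 1 higher (median -1.5). Tk1, thymidine kinase, fell from 138 to 23.6 CPM (-2.55) and Brca2, a recombination protein, from 51.9 to 8.99 CPM (-2.53). Pcna, the replication clamp, was at 555 CPM untreated and 341 CPM with LPS (-0.7) and was not called. The 1 repair gene called higher was Dclre1c, the nuclease Artemis (25.4 to 79.7 CPM, 1.65).

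Regulators of the G1 phase were divided, with 6 of 26 measured called higher and 6 lower. Cdkn1a, the CDK inhibitor p21, went from 179 to 669 CPM (1.91) and Gadd45b, a stress-response gene, from 5.21 to 62.3 CPM (3.58). Cdkn2c, the CDK inhibitor p18, and Ccne2, a cyclin E, were called lower (-2.16 and -1.39), and Ccnd1, cyclin D1, was at 0.27, not called. Among 29 measured BCL2 family and apoptosis genes 8 were called higher and 4 lower. Those called higher included the survival genes Mcl1 (595 to 1536 CPM, 1.37), Bcl2l1 (2.34) and Cflar (2.48), while Bcl2, also a survival gene, and the death promoters Pmaip1 and Bmf were lower (-1.34, -1.76 and -1.49). Of 21 measured inflammasome, pyroptosis and necroptosis genes 10 were called higher and 1 lower. Nlrp3 went from 82.8 to 553 CPM (2.74), Casp4, the intracellular LPS sensor caspase-11, had 2.73 and Mlkl, the executor of necroptosis, 3.08. Pycard, the adaptor ASC that this line is known to lack, had 2 and 3 reads.

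Stress response lists had called members, and the lists of cytosolic ribosomal proteins, ribosome biogenesis, splicing and RNA polymerase II genes had none. Of 40 measured tRNA synthetase and amino acid response genes 13 were called higher and 1 lower, among them Chac1, which degrades glutathione (4.74 to 45.9 CPM, 3.27 [2.96 to 3.61]), and Asns, asparagine synthetase (1.35). Of 37 measured unfolded protein response and chaperone genes 8 were called higher and 0 lower, with Ddit3, the CHOP factor, at 2.6 and the total transcript of Xbp1 at 0.24, not called. Of 79 cytosolic ribosomal protein genes, 58 ribosome biogenesis genes, 45 splicing genes and 50 RNA polymerase II, Mediator and TFIID genes, 0 were called in either direction. Their median log2 ratios were 0.10, 0.11, -0.15 and -0.08, and the first pair turned negative under total-count scaling. Of 76 measured mitochondrial ribosomal proteins, 1 was called higher and 3 lower, among them Mrps6 (-1.61). In the actin and tubulin list 12 of 44 measured were called higher and 1 lower: Marcksl1, an actin-binding protein, went from 31.1 to 842 CPM (4.76) and Stmn1, which destabilises microtubules, fell from 199 to 53.3 CPM (-1.9). Of 54 chromatin genes 5 were called higher and 3 lower, no more than the 11.2% and 10.1% of all genes. The H3K27 demethylase Kdm6b was at 1.29 and the H3K27 methyltransferase Ezh2 at -1.06.

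Outside the lists, the called protein-coding genes with the largest ratios at a mean of 5 CPM or more included, after Hdc, the uridine phosphorylase Upp1 (0.263 to 79.3 CPM, 8.23 [7.01 to 9.86]) and the acute phase protein Saa3 (1.68 to 381 CPM, 7.82). Zfp811, a zinc finger gene, went from 0 reads to 36.3 CPM (230.1-fold higher with 3 reads put in for 0). On the other side stood Klhl30, a kelch-like gene (31.7 to 0.326 CPM, -6.61 [-8.23 to -5.38]), Neurl1b, a ubiquitin ligase of Notch ligands (26.8 to 0.847 CPM, -4.99 [-5.91 to -4.2]), Cd24a, a surface glycoprotein (106 to 3.45 CPM, -4.94 [-5.36 to -4.55]), and St6gal1, which adds sialic acid to glycans (39.3 to 3.06 CPM, -3.68). These are single genes that no list here had gathered. The log2 ratios of all 4 of those lower were below the lowest in the mitosis list, that of Aspm (-3.25). Each of the 4 lost far less in CPM than Mki67. Those 4 were picked for the lowest ratios among unlisted genes, so their place below that list follows from the choice.

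By gene class, protein-coding genes made up 10334 of the 11640 genes, and 10.9% of them were called higher and 10.3% lower. Of 471 noncoding genes (long intergenic, antisense, sense and processed transcripts), 17% were called higher and 13% lower, at a median level of 2.75 CPM against 41.4 CPM for coding genes. Without the filter on low levels, 7.73% of 2420 noncoding genes were called higher, against 10% of 13200 protein-coding genes. The order of the 2 classes thus reverses, and the share depends on which genes are counted. Antisense genes were called higher in 20.6% of 160 cases and lower in 9.38%, and processed pseudogenes in 9.59% and 4.70% of 532. No source used here says whether strand was used in counting, so reads of an antisense gene and of its partner cannot be told apart, and a pseudogene can share reads with its parent. Mir155hg, the host transcript of the inflammatory microRNA miR-155, went from 1.05 to 63.6 CPM (5.92 [5.28 to 6.63]), and 6530402F18Rik from 0.684 to 29.2 CPM (5.41 [4.63 to 6.33]). Among those called lower, Eldr went from 5.84 to 0.195 CPM (-4.9 [-7.2 to -3.32]) and D430036J16Rik from 18 to 1.56 CPM (-3.53).

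The direction of the calls varied with abundance. At a mean of 500 CPM or more over the pair, 19.1% of 267 genes were called higher and 0.375% lower, the 1 gene being Gpnmb. At 5 to 20 CPM, 8.90% of 2347 genes were called higher and 15.5% lower. The mean of the pair contains the LPS value, so genes that LPS raised moved into the upper bins. Binned by the untreated knockout library, which takes no part in the ratio, 9.72% of 216 genes at 500 CPM or more were called higher and 2.31% lower. In the lowest of these bins, under 1 CPM, 66.5% of 361 genes were called higher and 2.77% lower. A gene in that bin could pass the filter only through another library, so the share called higher there is set in part by the filter. Precision followed depth: the median of one side of the interval was 0.74 at 1 to 5 CPM and 0.036 at 500 CPM or more, so a 2-fold change was near the limit of counting error only in the lowest bins.

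**Figure D4:**
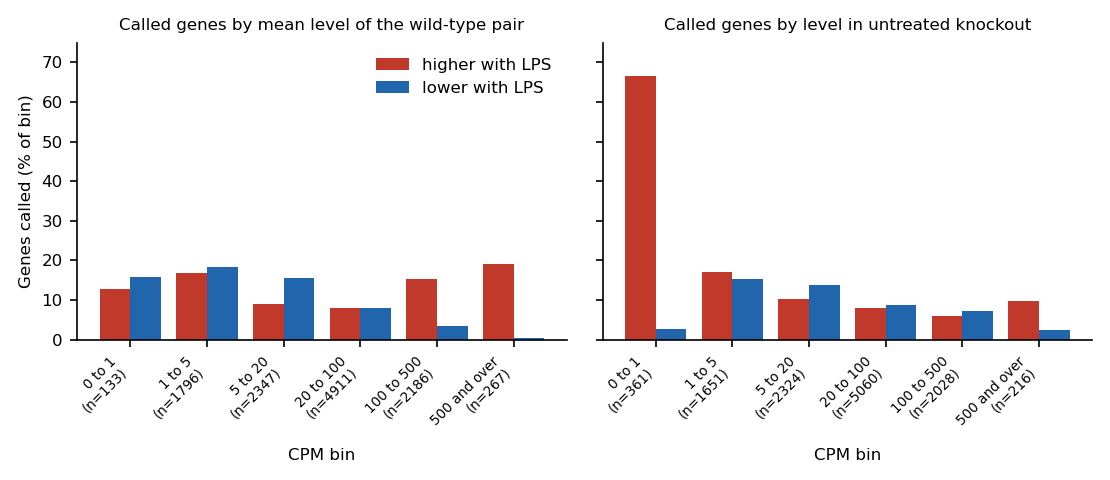
Share of genes called higher (red) and lower (blue) with LPS (y axis, % of bin) by level in CPM (x axis), with the number of genes in each bin; left, bins by the mean of the wild-type pair; right, bins by the untreated knockout library. At 500 CPM and over, 19.1% were called higher in the left panel and 9.72% in the right.

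The share of genes called differed between classes of promoter sequence. A RefSeq promoter of 300 bases (250 before and 50 after the start) was matched to 8370 of the 10334 protein-coding genes, or 81.0%, and 10.7% of these were called higher and 10.3% lower. Promoters with the ISRE letters on either strand made up 3.31% of the 8370, and 35.4% of their 277 genes were called higher and 7.94% lower. Promoters poor in CpG, with an observed to expected ratio below 0.4, made up 12%, and 30.8% of their 1005 genes were called higher against 7.97% of the 7365 others. The 2 features occurred together in 85 promoters, of which 75.3% belonged to genes called higher. With low CpG and no ISRE the share was 26.7% of 920, and with ISRE in other promoters 17.7% of 192. The NF-kB letters were in 6.18% of promoters, and 14.3% of those 517 genes were called higher. The share was 10.7% of all promoters and 9.68% of those with neither the ISRE nor the NF-kB letters. The AP-1 letters TGANTCA were in 4.53% of promoters and 23.5% of those 379 genes were called higher.

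Genes called lower were found more often with cell cycle motifs. The E2F letters TTTCCCGC were in 2.40% of promoters, and 25.4% of those 201 genes were called lower and 2.99% higher. The CHR letters TTTGAA were in 12% of promoters, with 16.9% of 1003 genes called lower and 11.5% higher, and CHR together with CCAAT, the NF-Y box, in 430 promoters, with 22.8% called lower. CCAAT, with or without CHR, was in 39.8% of promoters, with 12% called lower. Within the mitosis list, 56 of 67 genes had a promoter, and 66.1% of these held CHR and 75% CCAAT, as in the Mki67, Top2a and Ncapd2 sequences printed above. Within the antiviral list, 55 of 66 coding genes had one, and 47.3% held the ISRE and 25.5% CHR, while 76.4% were poor in CpG, against 1.79% of the mitosis list. In the replication list (53 of 63) 18.9% held E2F. For the NF-kB and IkB, GTPase and cytokine lists and for the genes changed most, fewer than 80% had a promoter, so no share is given. In 3′ UTRs of the annotation, the AU-rich letters ATTTATTTA were present in 691 of 10201 coding genes, of which 13.5% were called higher and 7.82% lower, against 10.6% and 10.5% of the others.

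**Figure D5:**
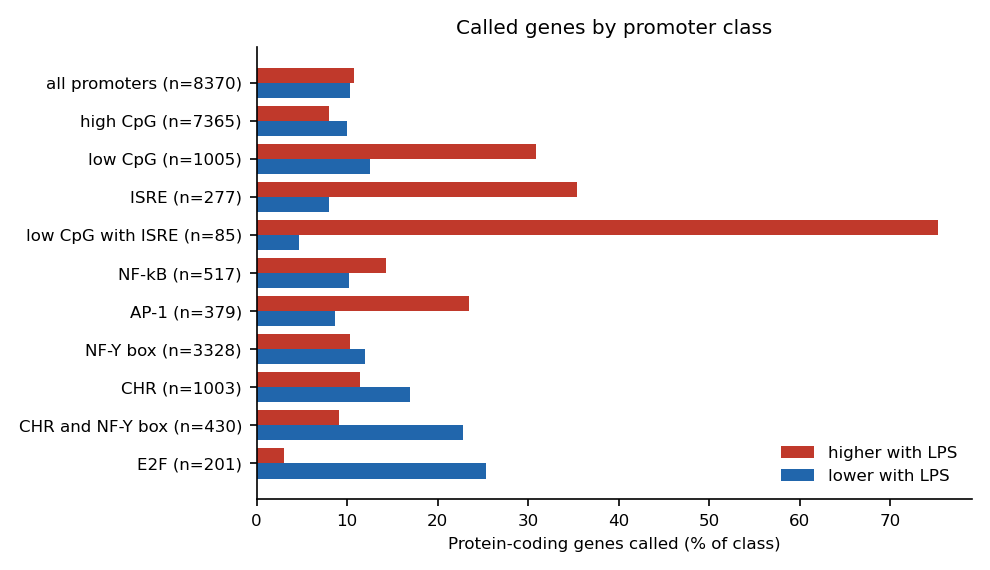
Share of protein-coding genes called higher (red) and lower (blue) with LPS (x axis, % of class) by promoter class (rows), with the number of genes in each class; classes overlap. Low CpG promoters with an ISRE stand at 75.3% higher and E2F promoters at 25.4% lower, against 10.7% and 10.3% of all promoters.

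Genes called the same way lay next to each other in 90 runs of 3 or more measured genes, 66 runs of 268 genes called higher and 24 runs of 73 called lower. Among coding genes alone there were 52 and 23 runs. The longest held 13 genes of the Ifi200 family and its neighbours at chr1:173468485-174001972 (GRCm38), from Ifi206 to Ifi202b and Gm18445, with log2 ratios from 2.09 to 11.09 and a median of 6.09. A run of 9 genes at chr11:48861968-49135387 reached from Irgm1 to Ifi47 (median 3.46), and another 9 at chr11:82951349-83190216 from Slfn5 to Slfn4 (median 4.16). A run at chr17:35170991-35235792 held Tnf with Ltb, Lta, Aif1, Lst1 and Nfkbil1 among 8 genes (median 2.19). The Ifit genes formed a run of 6 at chr19:34550694-34650009. The Ifi200, Slfn and Ifit genes are families of near copies, and the part that reads shared between copies have in these runs was not tested. Runs of genes called lower were short, the longest with 4 genes (Zfp81, Zfp101, Adamts10 and Myo1f at chr17:33329342-33607764).

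The knockout pair, which shares no library with the wild-type pair, gave a second set of ratios. Of the 1309 genes called higher in wild type 85.9% were also called higher in knockout, where 11.6% of genes were, and these made up 83.6% of the 1345 called there. For genes called lower the shares were 84.3% of 1180 and 71.2% of 1398, where 12% of genes were called. The share was larger at higher abundance, from 72.8% of called-higher genes under 5 CPM to 91.6% at 100 CPM or more, and from 74.2% to 90.5% of called-lower genes. Of the 1309 and 1180 genes, 1286 and 1160 had the same sign of ratio in knockout. The share of each sign over all compared genes is not given, so these counts cannot be weighed. The filter and the scaling were set over both pairs. A gene silent in both untreated libraries passed the filter only through an LPS library, so the overlap is in part set by the filter. Since the genotypes differ, the knockout pair is not a replicate of wild type.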

How the data were processed

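Poly-A RNA of 4 RAW 264.7 libraries was sequenced, 1 per group. The deposited counts are raw whole numbers of reads for each gene, and the authors used CASAVA 1.8, HISAT2 2.0.5 and featureCounts 1.5.0-p3 with GRCm38/mm10, per the submitters' processing notes; no source used here gives their roles, options or strand setting. In the deposited FPKM, each count is divided by the gene's length and by 1.15 (untreated) or 0.932 (LPS) times the library's total count, as found from the values. FPKM were used for ranks, shares and as an alternative.

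TMM factors from edgeR 4.0.16 in R 4.3.3, on genes averaging at least 1 CPM in the 4 libraries, were 1.11 untreated and 0.901 with LPS. Ratios had exact conditional (Clopper-Pearson) 95% intervals (scipy 1.17.1, Python 3.11.15). A count of 0 entered as 3 counts per library, 0.158 CPM untreated and 0.195 CPM with LPS, and no fold is given where both libraries had 3 or fewer. The script was tested on simulated data. No test across replicates was possible for the pair.

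The pair, the 53 gene lists and the markers were chosen with earlier results of these data known. Named genes followed a rule: up to 4 members per list with the largest absolute ratio and at least 20 reads in a library, up to 3 called against the list, the 12 largest gains and losses in CPM, the 6 highest and lowest noncoding genes, the 10 highest and lowest unlisted coding genes at a mean of 5 CPM or more, the 6 longest runs, and genes called oppositely in the knockout pair. This named 332 genes. The other genes named were chosen after their values were seen.

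RefSeq promoters (GRCm38.p6) were matched to 8656 of the 11640 genes, 8422 by Entrez identifier and 234 by symbol. Printed promoters start within 300 bases of the deposited gene start. Annotated 3′ UTRs were found for 98.7% of coding genes. Other scalings tried were DESeq2 1.42.0 size factors, total counts, TMM from the pair alone and deposited FPKM as log2(value + 1). Other filters were none and 10 CPM on average, other rules 1.5-fold and an interval wholly beyond 2-fold, and another model an additive edgeR fit. Some genes are not reported here by name.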

Additional observations from a re-analysis of the deposited data

Results flagged for a closer look

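In 3 genes the wild-type pair and the knockout pair were called in opposite directions. The difference itself was not tested, there is 1 library per group, and all 3 are predicted genes or pseudogenes with few reads. Gm11007 had 8 untreated and 20 LPS reads in wild type (log2 ratio 1.63 [0.38 to 3.02]) and 32 and 11 in knockout (-1.27 [-2.41 to -0.25]). Gm38357 had 33 and 54 reads in wild type (1.02 [0.37 to 1.69]) and 63 and 26 in knockout (-1.01 [-1.73 to -0.33]). Gm6257 had 43 and 7 reads in wild type (-2.31 [-3.71 to -1.15]) and 15 and 25 in knockout (1.00 [0.02 to 2.03]). They are 3 of the 2489 genes called in wild type.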

How the results depend on the processing

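No paired analysis was possible because each group held 1 library and the labels carry no replicate numbers. A 1.5-fold rule gave 2202 genes higher and 2230 lower. The count of genes lower was 1904 with total counts, 691 at a mean CPM of at least 10, 681 by deposited FPKM and 728 with the whole interval beyond 2-fold; genes higher were 975, 882, 1000 and 1013 under these settings. DESeq2 size factors gave 1319 and 1167, TMM from the pair alone 1303 and 1190, no filter 1758 and 1502, and the additive edgeR fit 1274 and 1233. Shares moved as follows: genes called higher at 500 CPM or more from 19.1% to 9.72% in bins by untreated knockout; counts held by called-higher genes from 22.9% to 25.4% by FPKM and 21.3% with the whole interval; noncoding genes higher from 17% to 7.73% without a filter; and, with the whole interval, low-CpG genes higher from 30.8% to 27.7% and the share also called in knockout from 85.9% to 89.6%. Of 53 list medians, 13 changed sign under some setting, 10 of them with total counts, and none of the 13 exceeded 0.297 in size. Of 332 named genes, 302 kept their side of 2-fold with total counts and 332 with DESeq2 size factors. DESeq2 size factors moved the median of all genes only from -0.00388 to 0.00416, so little could change. With deposited FPKM 295 kept their side, 9 were no longer called and 28 were not tested. Why counts differ between scalings was not tested; a filter or a stricter rule leaves fewer genes by construction. Ratios of genes under 5 CPM are limited by depth.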
